A study of Mus musculus with 18 samples.

Results

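Omp, Pde1c, Pde4a, Slc24a4, Arrb2 and Slc12a2 are 6 genes whose products end the odor response of an olfactory sensory neuron (OSN), shape its time course, or load the cell with the chloride on which the response draws. They were chosen by symbol, as 6 of the 23359 gene symbols of the expression table, and each had 1 row with a value in all 18 libraries. RNA-seq was performed on cells sorted by fluorescence from the main olfactory epithelium of mice, to compare OSNs that carry trace amine-associated receptors (TAARs) with the rest of the epithelium, which is dominated by OSNs with odorant receptors (ORs). In the Taar5-ires-Cre knock-in line, Cre recombinase is made from the Taar5 transcript and turned on the reporter L10-GFP; in the Taar6-ires-Cre line it is made from the Taar6 transcript and turned on ZsGreen. Reporter-positive and reporter-negative cells of the Taar5 line gave 7 Taar5+ and 9 control libraries at postnatal day 11 to 14, and the Taar6 line gave 1 Taar6+ and 1 control library at postnatal day 16 to 17. The labels give the strain as C57BL/6, whereas the reporting summary of the study gives a mixed background and an older age for the mice.

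The control cells carried the same Cre and reporter alleles as the positive cells of their line and differed from them by the absence of the reporter. They were a mixture, so a control value is an average over OSNs with many receptors and over any other cells that passed the sort. The positive cells were marked by past or present activity of 1 Taar locus. In bulk samples of this kind, fewer cells of a type and less RNA per cell cannot be told apart.

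In an OSN, odor binding leads through a G protein and adenylyl cyclase to cyclic AMP, which opens a cation channel in the cilia, and the calcium that enters opens the chloride channel Ano2. Chloride leaves the cell and adds to the depolarization, because the Na-K-Cl cotransporter NKCC1, the product of Slc12a2, has accumulated it. The response ends when calcium is pumped out by the exchanger NCKX4 (Slc24a4), cyclic AMP is broken down by the phosphodiesterases PDE1C in the cilia and PDE4A in the rest of the cell, and receptors are uncoupled by β-arrestin (Arrb2). Olfactory marker protein (Omp), the classic marker of mature OSNs, is a cytosolic protein that buffers cyclic AMP, and OSNs without it respond more slowly.

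The 6 genes lie on 6 different chromosomes. In GRCm38 with the GENCODE M21 annotation, Omp (chr7:98143359-98145502, minus strand) has 1 exon and lies within the span of Capn5, on the same strand. Pde1c (chr6:56069804-56569103, minus strand) has 17 exons in its longest coding transcript, and Pde4a (chr9:21165714-21213248, plus strand) has 15. Slc24a4 (chr12:102128733-102267091, plus strand) has 16 exons, and the antisense transcript Gm16339 overlaps its start. Arrb2 (chr11:70432635-70440828, plus strand) has 15 exons, and Slc12a2, also on a plus strand, has 27. How the authors treated strand is not given in the sources used here, so reads of Slc24a4 and of Gm16339 cannot be told apart. Capn5 had a median of 11.0 TPM (a length-corrected share of the transcripts of a library, on a fixed total) in the controls and of 3.36 TPM in the Taar5+ libraries, both far below Omp.

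Of the 6 genes, 3 had start site windows of the RefSeq table for GRCm38.p6 that were searched here. Each window ran from upstream of an annotated start to a short way past it. These were 3 windows of Pde1c, 3 of Pde4a and 1 of Slc24a4. Omp and Arrb2 had no entry. Slc12a2 was left out of the search, so whether it had windows, and what they hold, is not known here. The windows were searched for CCCNNGGG, the core bound by the OSN factors of the EBF family, which reads the same on both strands, and for TAATTA, the core bound by homeodomain factors such as LHX2, which also reads the same on both strands. The EBF core was present in 1 window of Pde4a and in the window of Slc24a4, against 13.7% of 32851 windows in the table, and TAATTA was in 0 of the 7 windows, against 5.29%. These 2 windows are shown because they held the EBF core. As described further on, Pde4a and Slc24a4 had the highest rank correlation of the member pairs over the 16 libraries of the Taar5 line, though not within either group. A link between the core and this correlation was not tested. Capitals mark the EBF core, and letters run 5′ to 3′ on the plus strand, which is the strand of both genes.
Pde4a, chr9:21183851-21184150: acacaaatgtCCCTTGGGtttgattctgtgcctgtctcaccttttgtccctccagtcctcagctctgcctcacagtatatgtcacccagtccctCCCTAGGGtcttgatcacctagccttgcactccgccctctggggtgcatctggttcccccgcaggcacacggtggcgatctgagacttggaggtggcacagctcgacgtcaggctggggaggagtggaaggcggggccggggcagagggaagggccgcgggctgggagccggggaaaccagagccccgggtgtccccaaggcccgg
Slc24a4, chr12:102128477-102128776: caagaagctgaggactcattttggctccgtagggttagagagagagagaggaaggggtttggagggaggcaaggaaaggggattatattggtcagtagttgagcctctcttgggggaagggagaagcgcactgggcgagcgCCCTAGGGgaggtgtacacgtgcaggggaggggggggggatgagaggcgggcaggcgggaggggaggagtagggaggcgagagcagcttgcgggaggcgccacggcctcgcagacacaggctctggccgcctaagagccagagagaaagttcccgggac
In the Pde4a window the cores begin 240 and 156 bases before the start site, and in the Slc24a4 window the core begins 109 bases before it. A match of these letters is a description and not evidence of binding.

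Mature OSN markers were found in every library, with differences between libraries that bear on the members. The summed level of 5 mature OSN markers ran from 5343 to 17920 TPM in the controls and from 8399 to 17340 TPM in the Taar5+ libraries. Control replicate 2 stood apart, with 5939 rows above 0, the fewest of the 18 libraries (up to 17808), and with 641 of 3197 genes that were abundant elsewhere listed at 0. Its 4 Bowman's gland markers summed to 72930 TPM, against a control median of 819 TPM. Nearly all of this sum was 1 marker, Scgb1c1, the highest gene of that library at 71782 TPM. Taar5+ replicate 5 had the highest sum of 5 sustentacular markers, 14630 TPM against a group median of 716 TPM. In control replicate 2 and Taar5+ replicate 5 these gland and sustentacular sums were above those of the mature OSN markers, 5343 and 8399 TPM. Taar5+ replicate 5 also had the lowest summed Taar level of its group, 1517 TPM, where the next was 4542 TPM. Its summed OR level was the highest of the group, 5525 TPM, where the next was 1999.5 TPM. The 13 Taar genes above 0 in control replicates 1 and 2 had identical values in both, and those of replicate 2 were left out of the tests. TPM keep no sequencing depth, so depth is unknown. The labels do not say whether replicates came from separate animals, and p-values therefore measure the spread between libraries, which may be technical.

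None of the 6 genes passed the test for a difference between Taar5+ cells and controls across the whole table. By limma on log2(TPM + 1), 0 of 6 had an adjusted p under 0.05, against 21 of the 12502 genes tested (0.168%), and 0 of 6 had an unadjusted p under 0.05, against 7.05% of all genes tested. In each of the 6 the range of the Taar5+ libraries overlapped that of the controls, whereas 0.144% of genes tested had ranges that did not overlap. The log2 fold changes of the 6, Taar5+ over control, ran from -0.67 to 0.72 with a median of 0.28, and the median of all genes tested was 0.02. An exact two-sided permutation test of the same values, taken gene by gene over 11440 permutations, gave an unadjusted p under 0.05 for 1 of 6, Arrb2. The permutation test was not run over all genes, so no share of all genes can be set beside this count. Each limma miss leaves an interval, given with each gene, of differences that the values do not exclude. The interval takes no account of the adjustment over all genes tested, so a difference outside it could also have gone undetected.

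**Figure D1:**
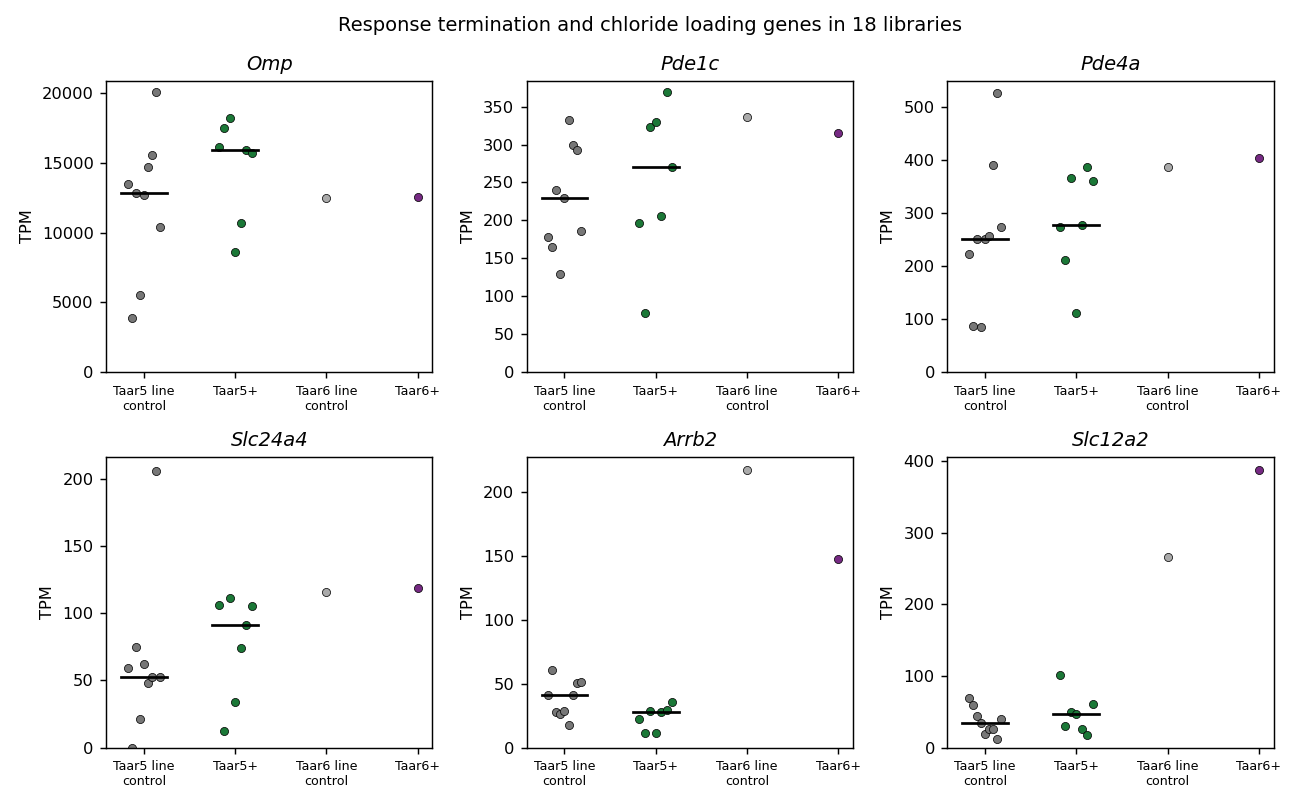
Level of each of the 6 genes in every library, in TPM on linear axes that start at 0 and differ between genes, by group; each point is 1 library and the bar is the median of a group of several libraries. Taar5+ and control points overlap for all 6 genes, Arrb2 has no Taar5+ library above the control median, and Arrb2 and Slc12a2 are higher in both Taar6-line libraries than in any library of the Taar5 line.

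Omp was among the most abundant transcripts of every library. Its level in the 9 controls ran from 3908 TPM through a median of 12870 TPM to 20070 TPM, and in the 7 Taar5+ libraries from 8597 through 15910 to 18195 TPM. The group means were 12130 ± 4982 TPM (SD, n = 9) and 14670 ± 3606 TPM (SD, n = 7). Ranked within its library, Omp was between 3rd and 18th of all genes in the controls and between 2nd and 6th in the Taar5+ libraries. The lowest value was that of control replicate 2, and 5 of 7 Taar5+ libraries lay above the control median. On the log2(TPM + 1) scale the ratio of Taar5+ to control was 1.30 (95% interval 0.869 to 1.94; limma adjusted p = 0.934), and the exact permutation p was 0.274. The marker of OSN maturity thus had overlapping levels in both sorted populations, with an interval that runs from slightly lower to close to double.

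Pde1c and Pde4a, the phosphodiesterases that end the cyclic AMP signal, had levels close to each other. Pde1c ran from 129 through 230 to 332 TPM in the controls and from 78.0 through 270 to 369 TPM in the Taar5+ libraries. The ratio of Taar5+ to control was 1.05 (95% interval 0.686 to 1.61; limma adjusted p = 0.984; exact permutation p = 0.825). Its lowest value, that of Taar5+ replicate 2, lay below every control, its highest lay above every control, and 4 of 7 Taar5+ libraries were above the control median.

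Pde4a ran from 85.7 through 251 to 528 TPM in the controls and from 112 through 278 to 388 TPM in the Taar5+ libraries. Its ratio was 1.17 (95% interval 0.697 to 1.98; limma adjusted p = 0.970; exact permutation p = 0.562). All 7 Taar5+ values lay within the range of the controls, with 5 of 7 above the control median.

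Set side by side within each library, Pde4a was above Pde1c in 6 of 9 controls and 6 of 7 Taar5+ libraries. The ratio of Pde4a to Pde1c ran from 0.526 to 1.80 in the controls and from 0.339 to 2.71 in the Taar5+ libraries, and its group difference gave an exact permutation p of 0.674. The ciliary and the cell body enzyme were therefore of like transcript abundance in both populations, and neither was the higher one in every library.

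Each of these phosphodiesterases was nearly the whole of its subfamily. Pde1c made up 98.6% ± 1.30 (SD, n = 9) of the summed TPM of Pde1a, Pde1b and Pde1c in the controls and 98.1% ± 1.41 (SD, n = 7) in the Taar5+ libraries. Pde4a made up 97.9% ± 1.64 (SD, n = 9) and 98.1% ± 1.39 (SD, n = 7) of Pde4a, Pde4b, Pde4c and Pde4d. Exact permutation tests of the shares gave p of 0.527 for Pde1c and 0.759 for Pde4a. In all 18 libraries each was the highest of its subfamily, and the highest group mean of any other member of the subfamilies in the Taar5 line was 3.84 TPM, that of Pde4d in the Taar5+ libraries.

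**Figure D2:**
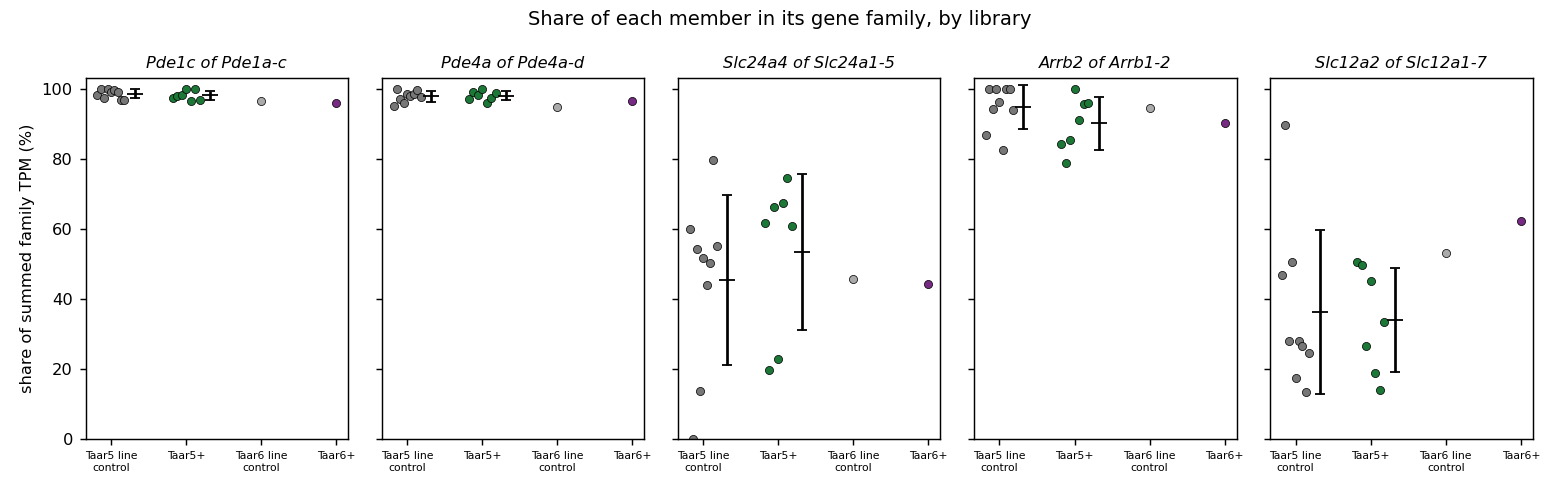
Share of each member in the summed TPM of its gene family, in percent, for every library by group; each point is 1 library, and the bar beside the points is the mean ± SD of a group of several libraries. Pde1c, Pde4a and Arrb2 take nearly all of their families, while Slc24a4 and Slc12a2 take shares that differ widely between libraries.

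Slc24a4, the potassium-dependent sodium-calcium exchanger that clears calcium from OSN cilia, had the widest spread of the 6 between libraries on the log2 scale. It was listed at 0 in control replicate 2, at 21.6 TPM in replicate 4, between 48.2 and 74.9 TPM in 6 controls and at 206 TPM in replicate 8. In the Taar5+ libraries it was 106, 12.8, 111, 33.7, 74.5, 91.1 and 105 TPM. The lowest and the highest value of the 16 libraries were thus both controls, and the Taar5+ values fell between them.

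The ratio of Taar5+ to control for Slc24a4 was 1.65, with a wide 95% interval of 0.517 to 5.25 (limma adjusted p = 0.955; exact permutation p = 0.518). The log2 fold change of 0.72 moved with single libraries, in both directions. Many abundant genes are listed at 0 in control replicate 2, and without that library the value was 0.06 ± 0.46 (SE). Without control replicate 2 and Taar5+ replicate 5 it was 0.02 ± 0.49 (SE). It rose to 1.02 ± 0.79 (SE) without control replicate 8 and to 1.09 ± 0.81 (SE) without Taar5+ replicate 2. At this spread, a difference of severalfold in Slc24a4 could not have been detected in all 16 libraries.

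Within its family Slc24a4 was the highest member in 12 of the 16 libraries of the Taar5 line, but not the only one detected. Its share of the summed TPM of Slc24a1 to Slc24a5 was 45.4% ± 24.2 (SD, n = 9) in the controls and 53.3% ± 22.4 (SD, n = 7) in the Taar5+ libraries (exact permutation p = 0.510). Slc24a5, an exchanger of intracellular membranes known from pigment cells, averaged 38.7 and 28.0 TPM in the controls and the Taar5+ libraries. Slc24a2, an exchanger of neurons, averaged 19.1 ± 8.37 TPM (SD, n = 9) in the controls and 32.4 ± 14.0 TPM (SD, n = 7) in the Taar5+ libraries, with a limma adjusted p of 0.874. The median ratio of Slc24a4 to Slc24a2 was 2.66 in the controls and 2.90 in the Taar5+ libraries (exact permutation p = 0.700). In the Taar6 line Slc24a2 was above Slc24a4 in both libraries, at 138 TPM in the control and 148 TPM in the Taar6+ library. Slc24a4 held 45.55% and 44.23% of the family there, and Slc24a5 was 0 and 0.725 TPM.

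Arrb2, the β-arrestin that binds phosphorylated receptors and uncouples them from the G protein, was the 1 member with a lower mean level in the Taar5+ libraries. The controls ran from 17.6 through 41.2 to 60.7 TPM, and the Taar5+ libraries from 11.5 through 28.2 to 36.0 TPM. The group means were 38.5 ± 14.2 TPM (SD, n = 9) and 24.1 ± 9.35 TPM (SD, n = 7). No Taar5+ library was above the control median, 2 of 7 were below every control, and the other 5 lay within the control range.

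The ratio of Taar5+ to control for Arrb2 was 0.629 (95% interval 0.373 to 1.06), with an unadjusted p of 0.0786 and an adjusted p of 0.806 by limma. The exact permutation test gave p = 0.0412, which is not adjusted for the 6 genes tested. Whether the exact permutation p passed 0.05 depended on the libraries kept and on the scaling. Over 21 alternatives the exact permutation p ran from 0.0123 (without control replicate 6) to 0.120 (relative to 6 transduction genes, all libraries kept). In 10 of these the exact permutation p was above 0.05, among them the exact permutation test without the libraries standing apart (p = 0.0693). The highest control was replicate 2, and without it the log2 fold change was -0.58 ± 0.32 (SE) in place of -0.67 ± 0.36 (SE). The difference in Arrb2 did not pass the test across all genes.

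Marker sums of other cells also had lower medians in the Taar5+ libraries. The 4 blood and immune markers in the table, of 5 on the list, ran from 4.67 through 997 to 6196 TPM in the controls and from 5.71 through 504 to 1426 TPM in the Taar5+ libraries. The 4 immature OSN markers ran from 277 through 1813 to 2513 TPM and from 992 through 1183 to 1619 TPM, and the 5 progenitor markers from 0 through 62.0 to 114 TPM and from 0.628 through 3.30 to 120 TPM. The 3 horizontal basal cell markers ran from 0 through 97.95 to 122.5 TPM in the controls and from 0 through 5.01 to 181 TPM in the Taar5+ libraries. The 3 microvillar cell markers ran from 12.6 through 122 to 608 TPM and from 0.266 through 5.73 to 175 TPM. All of these ranges overlapped between the groups, and no gene of these lists was listed at 0 in every library of a group. Arrb2 is used by many cell types, and the part of these cells in its level was not tested.

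The other β-arrestin, Arrb1, averaged 1.80 ± 2.23 TPM (SD, n = 9) in the controls and 2.55 ± 1.71 TPM (SD, n = 7) in the Taar5+ libraries. Arrb2 therefore held 94.9% ± 6.37 (SD, n = 9) of the β-arrestin transcript in the controls and 90.2% ± 7.61 (SD, n = 7) in the Taar5+ libraries (exact permutation p = 0.196). It was the higher of the pair in all 18 libraries.

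Slc12a2, the transporter that loads OSNs with chloride, had a modest level. It ran from 12.7 through 34.9 to 69.7 TPM in the controls and from 17.6 through 47.6 to 101 TPM in the Taar5+ libraries. The ratio of Taar5+ to control was 1.25 (95% interval 0.690 to 2.27; limma adjusted p = 0.956; exact permutation p = 0.4175). The highest value, that of Taar5+ replicate 1, lay above every control and the other 6 Taar5+ values lay within the control range.

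Supporting and gland cells also express Slc12a2, and their markers ran from 313 to 7217 TPM (5 sustentacular markers) and from 198 to 72930 TPM (4 gland markers) in the controls, and from 161 to 14630 TPM and from 187 to 5173 TPM in the Taar5+ libraries, with none listed at 0 throughout a group. Control replicate 2, with the highest gland sum, nearly all of it from Scgb1c1, had 59.3 TPM of Slc12a2, the second highest of the controls. Taar5+ replicate 5, with the highest sustentacular sum, had 26.5 TPM, the second lowest of its group. The part of these cells in the level of Slc12a2 was not tested.

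Slc12a2 was not the highest of its family in most libraries of the Taar5 line. The family also holds the chloride-extruding K-Cl cotransporters. Slc12a2 made up 36.1% ± 23.5 (SD, n = 9) of the summed TPM of Slc12a1 to Slc12a7 in the controls and 34.0% ± 14.9 (SD, n = 7) in the Taar5+ libraries (exact permutation p = 0.856), and it was the highest in 6 of 16 libraries. In the Taar6 line it was the highest in both libraries, at 53.1% in the control and 62.25% in the Taar6+ library. Slc12a7, a K-Cl cotransporter, averaged 58.0 ± 31.6 TPM (SD, n = 9) in the controls and 76.8 ± 36.0 TPM (SD, n = 7) in the Taar5+ libraries. Slc12a1, the kidney paralog of Slc12a2, was listed at 0 in all 18 libraries. The ratio of Slc12a2 to Slc12a7 had medians of 0.476 and 0.583 in the controls and the Taar5+ libraries (exact permutation p = 0.752).

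Against Ano2, the channel through which the loaded chloride leaves, Slc12a2 was lower in transcript level in every library. Ano2 averaged 388 ± 147 TPM (SD, n = 9) in the controls and 398 ± 134 TPM (SD, n = 7) in the Taar5+ libraries. The ratio of Slc12a2 to Ano2 ran from 0.0222 through 0.0730 to 0.349 in the controls and from 0.0446 through 0.0872 to 0.322 in the Taar5+ libraries. The ranges overlapped almost entirely, with an exact permutation p of 0.660.

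**Figure D3:**
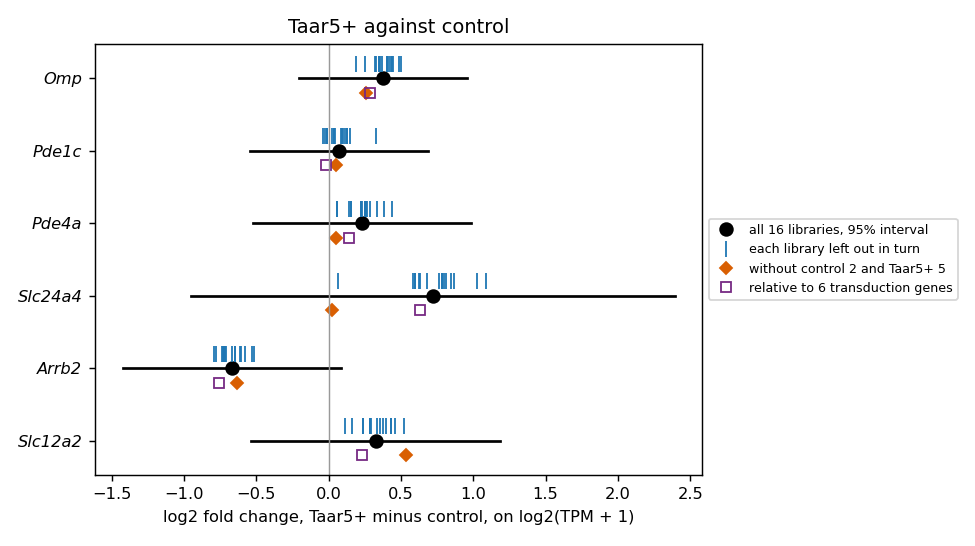
Log2 fold change of each of the 6 genes, Taar5+ over control, by limma on log2(TPM + 1). Black points and lines give the value and 95% interval over 16 libraries, blue ticks the value with each library left out in turn, orange diamonds that without control replicate 2 and Taar5+ replicate 5, and purple squares that relative to 6 transduction genes. All 6 intervals include 0, and the interval of Slc24a4 is the widest.

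The order of the levels was alike in both groups. Omp was the highest of the 6 in all 18 libraries, at 23.7 to 60.8 times the next member in the controls and 26.1 to 82.6 times in the Taar5+ libraries. Pde1c and Pde4a came next, and both lay above Slc24a4, Arrb2 and Slc12a2 in all 16 libraries of the Taar5 line. The remaining 3 could not be put in a fixed order. Slc24a4 was above Arrb2 in 7 of 9 controls and 7 of 7 Taar5+ libraries, above Slc12a2 in 6 of 9 and 5 of 7, and Arrb2 was above Slc12a2 in 5 of 9 and 2 of 7.

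The Taar6 line gave 1 library of each kind, so its differences have no replicate check and no test. Omp was 12510 TPM in the Taar6 control and 12530 TPM in the Taar6+ library, Pde1c 337 and 315 TPM, Pde4a 387 and 404 TPM, and Slc24a4 116 and 118 TPM. Their log2 differences, Taar6+ over control, were 0.00, -0.10, 0.06 and 0.03, all below the median absolute difference of 15189 genes between these libraries, which was 0.36. Arrb2 was 217 TPM in the control and 147 TPM in the Taar6+ library, a log2 difference of -0.56, and Slc12a2 was 266 and 387 TPM, a log2 difference of 0.54. Of the 6 genes, Arrb2 and Slc12a2 thus differed by more than the median gene, and by more than 66.1% and 65.2% of the 15189 genes. All of the 6 but Pde1c had the sign of their fold changes in the Taar5 line, where none passed the limma test. These signs depended on the scaling. Relative to 6 transduction genes, the Taar6 differences of Omp, Pde4a and Slc24a4 were -0.15, -0.08 and -0.11, against positive values in the Taar5 line. Those of Pde1c, Arrb2 and Slc12a2 were -0.24, -0.70 and 0.39, with the signs of the Taar5 line in that scaling.

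Arrb2 and Slc12a2 were also the members whose levels in the Taar6 line lay above all 16 libraries of the Taar5 line, whose highest values were 60.7 and 101 TPM. The other 4 lay within the range of the Taar5 line. Levels are not comparable between the lines: Gapdh, a glycolytic enzyme that every cell uses, was 6.06 and 1.43 TPM in the Taar6 line and 436 to 1222 TPM in the Taar5 line. Line, reporter and age cannot be told apart.

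Across the 16 libraries of the Taar5 line, Omp, Pde1c, Pde4a and Slc24a4 had positive pairwise correlations of differing size. Spearman's rho, given here as a description over libraries that share a mouse line and in part their cell makeup, was 0.753 for Pde4a and Slc24a4, 0.662 for Omp and Slc24a4, 0.656 for Omp and Pde4a, 0.585 for Pde1c and Pde4a, 0.441 for Pde1c and Slc24a4 and 0.326 for Omp and Pde1c. Without control replicate 2 the first of these was 0.707 (n = 15), and within groups it was 0.533 in the 9 controls and 0.607 in the 7 Taar5+ libraries. Omp and Pde1c had a rho of 0.817 within the controls and of -0.321 within the Taar5+ libraries. Arrb2 and Pde4a had a rho of 0.371, which was 0.625 without control replicate 2, 0.150 within the controls and 0.857 within the Taar5+ libraries. Slc12a2 had a rho between -0.391 and -0.0118 with the other 5. The number of rows above 0, a rough measure of library complexity, had a rho between -0.0382 and 0.362 with the 6 genes.

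**Figure D4:**
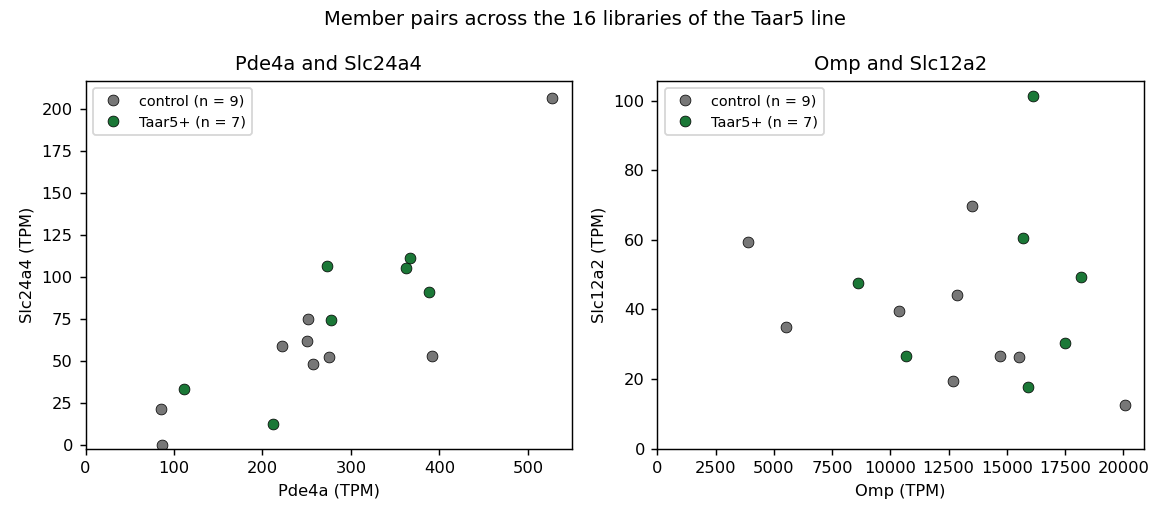
TPM of Slc24a4 against Pde4a and of Slc12a2 against Omp in the 16 libraries of the Taar5 line, on linear axes; each point is 1 library, colored by group. Slc24a4 tends to be high where Pde4a is high (rho 0.753), while Slc12a2 shows no such order with Omp (rho -0.150).

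The genes whose levels were most like those of each member, by Spearman's rho over the same 16 libraries, were mostly not known parts of the transduction pathway. For Omp they were Nmnat2, an enzyme that makes NAD in axons (0.921), and Slc25a3, the mitochondrial phosphate carrier (0.897). For Pde1c they were Slc17a6, the vesicular glutamate transporter through which OSNs signal to the olfactory bulb (0.868), and the RNA helicase gene Dhx8 (0.844). For Pde4a they were Golga2, a Golgi matrix protein, and Spag16, a protein of motile cilia (both 0.956).

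For Slc24a4 the most alike were the acid-sensing channel Asic1 (0.924) and the neuronal surface protein Dner (0.912). For Arrb2 they were Drosha, which cuts microRNA precursors (0.891), and the transcription factor gene Atmin (0.885). For Slc12a2 they were the small GTPase gene Rab2a (0.885) and Cox6b1, a subunit of cytochrome c oxidase (0.859). With control replicate 2 left out, all 12 of these rho values stayed between 0.829 and 0.957. Each was picked as the highest over all genes tested, so the values are descriptions.

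Of the other genes, counted in 7 lists of the pathway and of OSN identity, 1 passed the test, against 0.168% of all genes tested. It was on the list of mature OSN identity, and 0 genes of the other lists passed. Of 9 transduction genes, all tested, 0 passed the adjusted threshold and their median log2 fold change was 0.24. The G protein subunit genes Gng13 and Gnb1 were the most abundant of the list, at 9137 ± 2921 and 1858 ± 587 TPM (SD, n = 9) in the controls and 10540 ± 2954 and 2215 ± 669 TPM (SD, n = 7) in the Taar5+ libraries. Of 15 phosphodiesterase genes, 10 were tested and 0 passed, with a median of 0.22. By mean over the 16 libraries, Pde4a and Pde1c were followed by Pde7b (65.2 TPM in the controls and 71.3 TPM in the Taar5+ libraries) and Pde8a (12.2 and 5.70 TPM), which also break down cyclic AMP. Pde4a and Pde1c were thus the highest of the 15 by group mean in both groups.

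Of 14 calcium removal genes in the table, 8 were tested and 0 passed, with a median of 0.57, and 1 of 8 had an unadjusted limma p under 0.05. That gene was Slc8a1, a sodium-calcium exchanger, named after its value was seen (log2 fold change 0.89; limma adjusted p = 0.692). By mean over the 16 libraries, the highest besides Slc24a4 were the plasma membrane pump Atp2b1 (40.6 and 49.95 TPM) and the pump of the endoplasmic reticulum Atp2a2 (38.3 and 46.3 TPM).

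Of 15 desensitization genes, 13 were tested and 0 passed, with a median of 0.16. Prkacb, a catalytic subunit of protein kinase A, averaged 100.5 and 94.4 TPM in the controls and the Taar5+ libraries, and the calmodulin kinase gene Camk2d 107 and 121 TPM. Rgs2, a regulator of G protein signaling named after its value was seen, averaged 18.2 TPM in the controls and 4.26 TPM in the Taar5+ libraries (log2 fold change -2.29; limma adjusted p = 0.335). Without control replicate 2 and Taar5+ replicate 5 its log2 fold change was -3.25 (limma adjusted p = 0.00149), and that of the calcium pump gene Atp2a3 was -2.28 (limma adjusted p = 0.0158). In that fit 337 of 11915 genes tested passed, 14.5% of them higher in the Taar5+ libraries. In the Taar6 line Rgs2 was 30.15 TPM in the control and 30.62 TPM in the Taar6+ library, and Atp2a3 was 22.2 and 11.2 TPM.

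Among 8 calmodulin and calcium buffer genes, 6 were tested and 0 passed, with a median of 0.07. Calm2, which encodes calmodulin, the activator of PDE1C, averaged 6150 TPM in the controls and 6852 TPM in the Taar5+ libraries. Of 19 chloride transport genes, 15 were tested and 0 passed, with a median of 0.52. Slc12a7 and the chloride-proton exchanger gene Clcn3 (28.4 and 32.1 TPM) had the highest means over the 16 libraries of the genes on the list that are not among the 6.

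Of 9 genes of mature OSN identity, all tested, 1 passed and was lower, with a median of 0.01. This was Nqo1, a quinone reductase known as a marker of OSNs of the dorsal zone of the epithelium, at 1354 ± 412 TPM (SD, n = 9) in the controls and 264 ± 187 TPM (SD, n = 7) in the Taar5+ libraries (log2 fold change -2.48; limma adjusted p = 0.000312). Rtp1, a chaperone that carries receptors to the cell surface, averaged 824 and 837 TPM.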

How the data were processed

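RNA-seq libraries of sorted cells of mouse main olfactory epithelium were made by the authors with Smart-seq2, a full-length method with PCR and without molecular identifiers. The submitters' processing notes name Trimmomatic 0.36, HISAT2 2.1.0, Cufflinks 2.2.1 and the build mm10 (GRCm38). The deposited values are TPM as the authors made them; the annotation, the treatment of strand and of shared reads, and how Cufflinks output became TPM are not given in the sources used here. TPM carry no read numbers, so precision rests on the spread between libraries.

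The table held 23847 rows, and 488 rows repeating a symbol were summed with it. The 12502 genes reaching 1 TPM in 7 or more of the 16 Taar5-line libraries were tested on log2(TPM + 1) with limma 3.58.1 in R 4.3.3 (empirical Bayes with trend, Benjamini-Hochberg over all genes, threshold 0.05), on groups taken from the labels. Gene by gene, exact two-sided permutation tests of the same values were added in Python 3.11.15. The fit was tested on simulated data with 200 changed genes. The members and gene lists were chosen with earlier results of these data known; family shares, ratios and the genes stated to be so were added after values were seen. From each list, the 2 non-member genes with the highest mean TPM were named, with any gene called, and for each member the 2 genes of highest Spearman's rho. A gene that this rule names is not reported here. Other normalizations, filters, pseudocounts, a replicate block and fits without each library were tried.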

Additional observations from a re-analysis of the deposited data

Results flagged for a closer look

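Among the 12 sets of values checked, 6 genes in 2 groups, 2 held a library far from the rest of its group by Dixon's ratio on the log2(TPM + 1) scale, where chance gives about 0.6. Pde1c was lowest in Taar5+ replicate 2, at 78.0 TPM, and the gap to the next library was 0.595 of the range of the group. Without that library the log2 fold change of Pde1c was 0.33 in place of 0.07. Slc24a4 was listed at 0 in control replicate 2, where the gap was 0.584 of the range of the group, and without that library its log2 fold change was 0.06 in place of 0.72.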

How the results depend on the processing

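In all 28 alternatives 0 of 6 members passed the adjusted threshold, and all but Pde1c kept their direction. The log2 fold change of Pde1c was -0.0193 relative to 6 transduction genes and ran from -0.04 to 0.33 when single libraries were left out (-0.0225 without control replicate 4, -0.00969, -0.0140 and -0.0412 without Taar5+ replicates 3, 4 and 6). The lowest adjusted p of a member was 0.0862, for Omp with array weights by limma. The exact permutation test of Arrb2 was above 0.05 relative to the 6 transduction genes (log2 fold change -0.76, p = 0.120), without control replicate 2 and Taar5+ replicate 5 (-0.63, p = 0.0693) and in 8 of 16 fits without a single library (p from 0.0561 to 0.0953); over all 16 such fits the log2 fold change ran from -0.79 to -0.52. Genes called over the whole table, 21, became 36 with quantile normalization, 11 with TPM rescaled without receptor genes, 36 relative to the transduction genes, 1349 with array weights, 13 with the replicate block, 337 without the 2 libraries that stand apart and 16 to 148 without single libraries (148 without control replicate 2, 66 without Taar5+ replicate 5). Of the genes called, 85.7% were higher in Taar5+ libraries, against 77.8%, 72.7%, 47.2% and 13.4% in the first 4 of these alternatives and 14.5% without the 2 libraries; the cause was not tested. Without the 2 libraries 1 calcium removal and 1 desensitization gene passed, where 0 had. The median log2 fold change of all genes moved by 0.15 with quantile normalization and by -0.23 without the 2 libraries. With replicate numbers as a block, members had log2 fold changes from -0.53 (Arrb2) to 1.13 (Slc24a4, SE 0.43, limma adjusted p = 0.534); control replicates 8 and 9, with no partner, did not enter, and Slc24a4 was higher in the Taar5+ library of all 7 pairs. Same-numbered libraries deviated together in 5 of 7 pairs over 0.1 (correlations from -0.00617 to 0.275), 4 of 7 correlated best with their own number, and the labels do not say that numbers pair libraries.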
